A study of Homo sapiens with 12 samples.

Results

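The genes described here encode the nuclear subunits of the 5 oxidative phosphorylation complexes, with their assembly factors and a few copies of them, in HUH6 cells, a line established from a human hepatoblastoma. They were taken by symbol: every probe whose current gene symbol began with NDUFA, NDUFB, NDUFC, NDUFS, NDUFV, UQCR, SDH, COX4, COX5, COX6, COX7, COX8 or ATP5. These prefixes matched 157 probes of 101 symbols. A symbol was tested where its brightest probe had a detection p under 0.01 on at least 6 of the 12 arrays, which 87 symbols met out of 10196 genes tested in all. The 87 comprised 71 subunits and closely associated proteins (32 of complex I, 3 of complex II, 7 of complex III, 11 of complex IV and 18 of complex V), 11 assembly factors, and 5 pseudogenes or retrocopies.

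In the first group, HUH6 cells received a pool of small interfering RNAs (siRNAs) that target GATA4, which encodes a transcription factor with roles in heart, gonad and liver development. In the other, they received a non-targeting (NT) siRNA. In both groups the siRNA was at 0.1 uM, the transfection was stopped after 6 h, and total RNA taken 72 h after its start was hybridised to Illumina HT-12 v4 beadchips. Each group had 6 samples, numbered 1 to 6. The labels do not say that these came from separate cultures, so the p-values measure the spread between these samples, which may be technical. Samples of the same number are treated here as pairs, which the labels do not state.

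Oxidative phosphorylation makes ATP at the inner mitochondrial membrane. Complexes I and II pass electrons from NADH and succinate to ubiquinone, complex III passes them on to cytochrome c, and complex IV hands them to oxygen. Complexes I, III and IV pump protons, and complex V, the ATP synthase, lets the protons back through its rotor to make ATP. All of complex II and most subunits of the others are encoded in the nucleus, while a small core is encoded in mitochondrial DNA and was not analysed here. Liver cells, rich in mitochondria, use this ATP for gluconeogenesis, urea synthesis and protein secretion.

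Signals are given as normalised log2 values of the brightest probe of each gene, and a difference of log2 values is a log2 change. GATA4 itself averaged 4.49 ± 0.078 in GATA4 siRNA samples, where its probe was detected on 0 of 6 arrays, and 5.69 ± 0.33 in NT siRNA samples, where it was detected on 6 of 6 (SD, n = 6 each; limma adjusted p = 2.6e-05). Each array detected 16067 to 16804 probes. The arrays of replicates 4 to 6 stood apart from those of replicates 1 to 3 in both groups: the first principal component, which held 57.3% of the variance over all genes, separated them. The labels name no difference between these sets of replicates, and both siRNAs are equally represented in each. Of 11 hepatoblastoma and liver cell markers on the array, 10 were detected on all 12 arrays, from ALB and FOXA2, with lowest raw signals of 2652.7 and 3537.8, up to APOA1 with 15961.7. DLK1, a marker of hepatoblasts, was detected on 0 arrays, with raw signals of 98.2 to 123.8.

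Most of these genes were bright. Of the 87 tested, 63 were among the 2549 brightest genes, which had a mean log2 signal of at least 9.99. The median subunit had a mean log2 signal of 11.35, against 8.43 over all genes tested. The catalytic beta subunit of the ATP synthase, ATP5F1B, averaged 14.23 log2 units over the 12 samples, and NDUFS1, the largest core subunit of complex I, averaged 5.73. These are signals of different probes and give no order of transcript abundance. NDUFS1 was also the tested gene that was not detected on every array, being detected on 11 of 12.

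The 14 symbols that were not tested included 6 subunit isoforms of complex IV known from other tissues. COX4I2, the lung and hypoxia isoform of subunit 4, COX6A2 and COX7A1, the heart and muscle isoforms, COX6B2 and COX7B2, expressed in testis, and COX8C had 0 arrays with detection. Their ubiquitous or liver-type partners COX4I1, COX6A1, COX6B1, COX7A2, COX7B and COX8A were detected on all 12 arrays. The accessory subunits NDUFA5, NDUFB1, NDUFB4 and NDUFS6 of complex I, the assembly factor NDUFAF8, the antisense transcript NDUFB2-AS1 and the pseudogenes SDHAP3 and SDHAP4 also stayed under the limit of 6 arrays. No gene lay close to that limit: the nearest above it was NDUFS1, detected on 11 arrays, and the nearest below were NDUFA5 and NDUFB4, detected on 2.

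GATA4 siRNA left the subunits close to their level with NT siRNA. None of the 71 subunits passed the test between the siRNAs, and 2 assembly factors did: NDUFAF4 was lower and SDHAF4 was higher. In limma with the replicate number as a block, 1 of 87 genes was higher and 1 was lower at an adjusted p under 0.05, where 2.66% of all genes tested were higher, 3.78% were lower and 6.43% were either. Among the 2549 brightest genes 7.73% were called. At an unadjusted p under 0.05 there were 12 of the 87, of which 5 were subunits, against 20.3% of all genes. In 0 of the 87 did the 6 GATA4 siRNA samples lie apart from the 6 NT siRNA samples, against 1.68% of all genes. All 6 pairs of samples went in 1 direction for 7 of the 87 (8.0%), against 11.7% of all genes.

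The change that the data allow was small for most members. The 95% interval of the log2 change lay between -0.25 and 0.25 for 78 of 87 genes (89.7%), compared with 58.7% of all genes tested, and for 65 of the 71 subunits. Dim genes had wider intervals, and 63 of the 87 were among the 2549 brightest genes. The share among those 2549 was not computed, so the contrast with all genes may reflect brightness. The median log2 change was 0.02 over the 71 subunits and 0.00 over all genes tested. Within complex I, 28 of 32 subunits had a positive log2 change (87.5%), with a median of 0.04, where 50.9% of all genes had a positive change. The median over complex I subunits was above 0 in all 6 pairs of samples, from 0.0028 to 0.069. The medians were 0.00 for complexes II and III, -0.01 for complex IV and 0.02 for complex V, and pairs of both signs occurred in each of them.

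**Figure D1:**
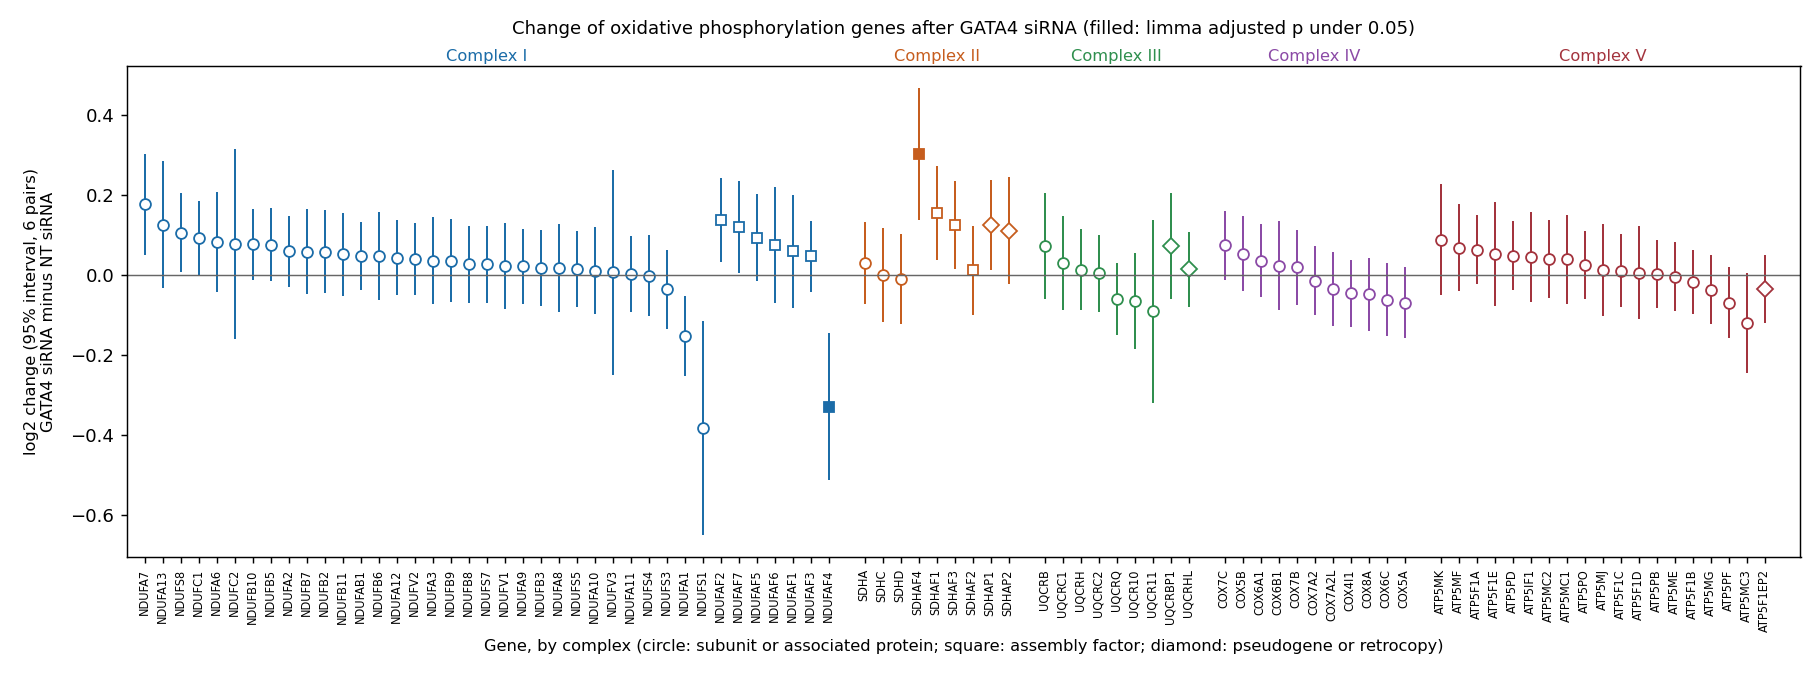
The log2 change of each of the 87 genes (GATA4 siRNA minus NT siRNA, 6 pairs of samples) is plotted by complex with its 95% interval. Circles are subunits and associated proteins, squares assembly factors and diamonds pseudogenes or a retrocopy, and the 2 filled symbols are NDUFAF4 (-0.33) and SDHAF4 (0.30), the genes with an adjusted p under 0.05.

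NDUFAF4 encodes a mitochondrial protein needed to build complex I and absent from the finished complex. Its log2 signal was 8.22, 8.03, 8.51, 8.78, 8.64 and 8.72 in GATA4 siRNA replicates 1 to 6, and 9.01, 8.75, 8.72, 8.67, 8.76 and 8.98 in NT siRNA replicates 1 to 6. The lowest values were the GATA4 siRNA samples of replicates 1 to 3, while the other 3 overlapped the NT siRNA samples. NDUFAF4 was 1.26-fold lower after GATA4 siRNA, a log2 change of -0.33 ± 0.087 (SE, 6 pairs; limma adjusted p = 0.0235). It was lower in 5 of 6 pairs. The exact sign-flip permutation test over the pairs gave a two-sided p of 0.0625, where the smallest p possible is 0.03125. NDUFAF4 was picked by these same differences, so this p adds no separate support.

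The NDUFAF4 change was -0.57 in replicates 1 to 3 and -0.09 in replicates 4 to 6. The difference between these changes was 0.48, with an unadjusted p of 0.0032 and an adjusted p of 0.334 in limma's interaction test, in which 8.85% of all genes had an unadjusted p under 0.05 and 0 passed the adjusted threshold. A second probe for NDUFAF4 gave a log2 change of -0.42. The adjusted p was 0.116 without replicate 1 and 0.11 without replicate 2, and 0.358 without the replicate block, within a range of 0.00255 to 0.609 over all alternatives.

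SDHAF4 encodes a chaperone that binds the flavin-loaded SDHA subunit during assembly of complex II. Its log2 signal was 7.01, 7.02, 6.95, 7.48, 7.46 and 7.44 in GATA4 siRNA replicates 1 to 6, and 6.73, 6.86, 6.73, 7.19, 7.02 and 7.01 in NT siRNA replicates 1 to 6. Within each pair the GATA4 siRNA sample was the higher one, and within each set of 3 replicates the groups did not overlap, although they did over all 12 samples. SDHAF4 was 1.23-fold higher after GATA4 siRNA, a log2 change of 0.30 ± 0.079 (SE, 6 pairs; limma adjusted p = 0.0206). The exact sign-flip permutation test gave a two-sided p of 0.03125, the smallest it can give with 6 pairs.

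The 6 SDHAF4 pairs differed by 0.15 to 0.44 on the log2 scale. The mean was 0.22 in replicates 1 to 3 and 0.39 in replicates 4 to 6, and over all 6 pairs it was 0.18 without background correction (adjusted p = 0.0191). The adjusted p was 0.0542 without replicate 4, 0.081 without replicate 5 and 0.0849 without replicate 6, and 0.415 without the replicate block, within a range of 0.00939 to 0.444 over all alternatives. In bulk RNA, fewer cells that express a gene and less of its RNA per cell cannot be told apart.

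The promoters of these assembly factors are shown because theirs are the changes that passed the test. Each window runs from 250 bases before to 50 bases after the RefSeq gene start (GRCh38.p14), 5′ to 3′ on the gene's strand. Capitals mark any match to an NRF1 motif (GCGC, any base, then TGCGC), an ETS motif (CCGGAAG), a YY1 motif (AANATGGC) or a GATA motif (GATAA or GATAG), searched on both strands. The NDUFAF4 window is chr6:96897842-96898141 on the minus strand, with 1 ETS motif starting at position -147. The SDHAF4 window is chr6:70566680-70566979 on the plus strand, with 1 NRF1 motif starting at position -21.
NDUFAF4: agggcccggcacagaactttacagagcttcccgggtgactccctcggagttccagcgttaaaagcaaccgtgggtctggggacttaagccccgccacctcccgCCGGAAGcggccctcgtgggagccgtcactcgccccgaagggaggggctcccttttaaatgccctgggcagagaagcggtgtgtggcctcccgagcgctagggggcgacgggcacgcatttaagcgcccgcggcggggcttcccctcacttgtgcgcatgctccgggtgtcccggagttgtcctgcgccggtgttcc
SDHAF4: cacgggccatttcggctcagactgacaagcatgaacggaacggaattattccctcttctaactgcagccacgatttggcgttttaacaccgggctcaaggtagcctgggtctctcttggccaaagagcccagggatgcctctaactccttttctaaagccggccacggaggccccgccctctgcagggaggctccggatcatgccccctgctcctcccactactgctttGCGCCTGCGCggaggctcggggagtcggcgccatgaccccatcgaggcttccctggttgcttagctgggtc
The letters GATAA and GATAG occurred in neither window on either strand, and occurred in 36.1% of the 27305 promoters of the table.

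The remaining assembly factors did not pass the test between the siRNAs. SDHAF1, which protects the iron-sulphur subunit of complex II, had log2 signals of 8.88 to 9.25 (median 9.06) in GATA4 siRNA samples and 8.79 to 9.01 (median 8.90) in NT siRNA samples. Its GATA4 siRNA sample was the higher one in 6 of 6 pairs, the groups overlapped, and the change was 0.15 (limma adjusted p = 0.104). NDUFAF2, a complex I assembly factor, had a log2 change of 0.14 (adjusted p = 0.107) and was called without replicate 1. Over the 11 assembly factors, 6 had an unadjusted p under 0.05, where 20.3% of all genes did, and the median log2 change was 0.09.

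Among the subunits, the lowest p-values were those of 3 complex I genes. NDUFA1, a small accessory subunit of the membrane arm, had log2 signals of 11.17 to 11.40 (median 11.32) in GATA4 siRNA samples and 11.34 to 11.52 (median 11.47) in NT siRNA samples. The groups overlapped through NT siRNA replicate 5, the lowest NT sample, but the GATA4 siRNA sample was lower in 6 of 6 pairs. The change was -0.15 ± 0.047 (SE; limma adjusted p = 0.0556), and the adjusted p was 0.0469 without replicate 5, within 0.0282 to 0.361 over all alternatives.

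NDUFS1, which carries iron-sulphur clusters of the electron input arm, was close to the detection limit. It had log2 signals of 4.89 to 6.14 (median 5.50) in GATA4 siRNA samples and 5.69 to 6.18 (median 5.87) in NT siRNA samples. The groups overlapped, and the change was -0.38 ± 0.13 (SE; limma adjusted p = 0.0792), with a 95% interval of -0.65 to -0.12 and the GATA4 siRNA sample lower in 6 of 6 pairs. The NDUFS1 change was -0.13 without background correction, -0.60 in replicates 1 to 3 alone and -0.17 in replicates 4 to 6 alone. NDUFA7, an accessory subunit, had 8.71 to 8.94 (median 8.86) in GATA4 siRNA samples and 8.50 to 8.75 (median 8.73) in NT siRNA samples. Its GATA4 siRNA samples were higher in 5 of 6 pairs with overlapping groups, and the change was 0.18 (limma adjusted p = 0.084).

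**Figure D2:**
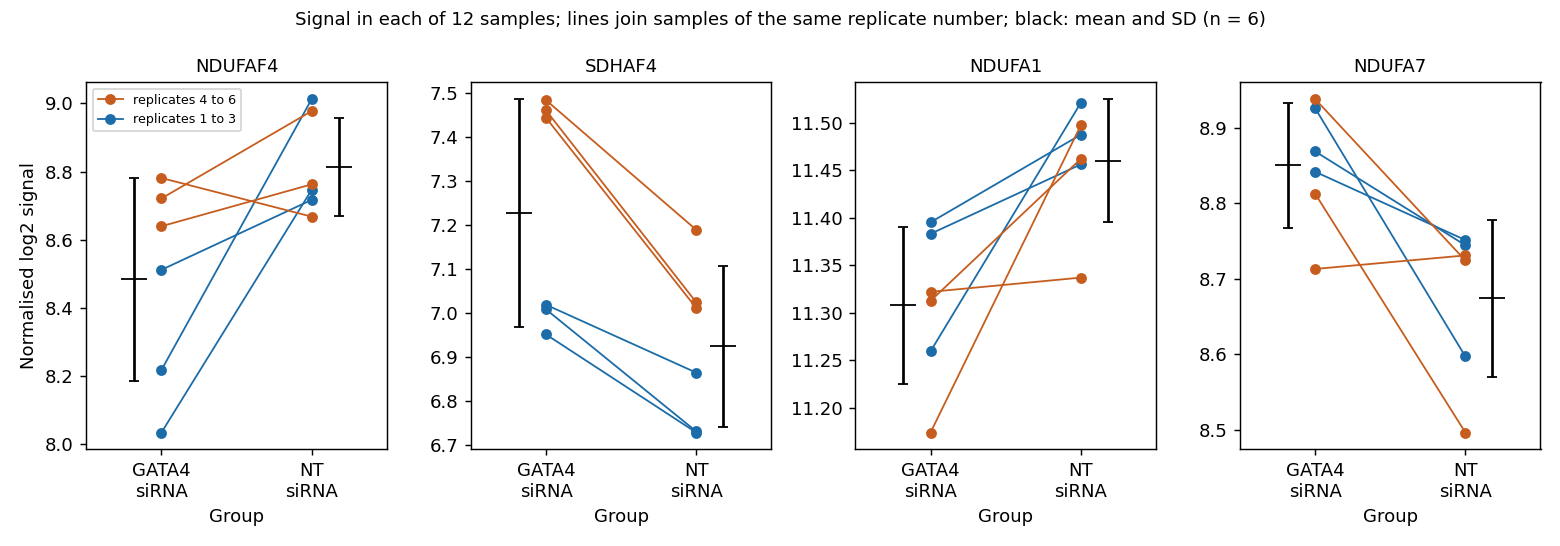
The normalised log2 signal of NDUFAF4, SDHAF4, NDUFA1 and NDUFA7 is plotted for each of the 12 samples, GATA4 siRNA on the left and NT siRNA on the right, with lines joining samples of the same replicate number and black bars for mean and SD (n = 6). The SDHAF4 lines all descend toward NT siRNA, while those of NDUFAF4 are steepest in replicates 1 and 2 and run the other way in replicate 4.

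The catalytic and rotor subunits of the ATP synthase did not pass the test between the siRNAs. ATP5F1A, its alpha subunit, had a log2 change of 0.06, and ATP5F1B, the beta subunit, one of -0.02. ATP5MC1, ATP5MC2 and ATP5MC3, which encode the same mature c subunit of the rotor ring, had changes of 0.04, 0.04 and -0.12. ATP5IF1, the inhibitor that stops the synthase from running backwards, had a change of 0.04 with a 95% interval of -0.07 to 0.15. COX7A2L, which joins complexes III and IV into supercomplexes, had a change of -0.04 with an interval of -0.12 to 0.05. Neither ATP5IF1 nor COX7A2L passed the test.

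Different probes of 1 gene did not always share a sign. Of 25 members with more than 1 tested probe, 13 had the same sign of siRNA change at all probes. UQCRH, the hinge subunit of complex III, had a change of 0.01 at its brightest probe and 0.29 at the other, and was called when probes were averaged. ATP5F1A had 0.06 at its brightest probe and -0.13 at the other.

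Of the mitochondrial gene lists outside the complexes, the tricarboxylic acid cycle had 0 of 16 genes higher and 2 lower after GATA4 siRNA, where 2.66% of all genes were higher and 3.78% were lower. The 2 were SUCLG1, the alpha subunit of succinyl-CoA synthetase (log2 change -0.24, limma adjusted p = 0.00351), and IDH3A, the catalytic subunit of the NAD-dependent isocitrate dehydrogenase (-0.27, adjusted p = 0.0206). The median over the 16 genes was -0.05, and over all genes 0.00. Of 12 regulators of mitochondrial biogenesis, 12 cristae organising genes and 24 complex IV assembly factors, 0 passed in any of the lists. The mitochondrial ribosome had 1 gene higher and 1 lower of 76, MRPL52 (0.30, adjusted p = 0.0216) and MRPL9 (-0.22, adjusted p = 0.0499).

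Array brightness and some markers also differed between the siRNA groups. The median raw signal of an array was 120.8 to 128.1 with GATA4 siRNA and 117.4 to 121.2 with NT siRNA. Of 10 hepatoblastoma markers 2 were lower after GATA4 siRNA, ALB (-0.23) and FOXA2 (-0.15), beside 3.78% of all genes. Of 7 stellate cell and fibroblast markers 2 were higher, COL1A2 (0.22) and TAGLN (0.24), beside 2.66% of all genes. The summed linear signal of the 12 stellate cell and fibroblast markers on the array was 8157 to 13726 with GATA4 siRNA and 7963 to 12884 with NT siRNA. ACTA2 and TAGLN were the brightest of the 12, so the sum mostly follows them. The part of array brightness and of these markers in the NDUFAF4 and SDHAF4 changes was not tested.

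More of these genes were called between replicates 4 to 6 and replicates 1 to 3 than between the siRNAs. The same held over all 10196 genes, with 5208 and 656 called. In either direction the share of members called was near that of all genes, with 42 of the 87 and 4988 of all genes not called. What differed from all genes was the direction of the calls. Each of the 5 complexes had subunits that were higher in replicates 4 to 6, and 0 of the 71 were called lower. Of the 87 genes, 43 were called higher (49.4%) and 2 lower (2.3%), at a limma adjusted p under 0.05 with the siRNA as a term, where 25.9% of all genes were higher, 25.2% were lower and 51.1% were either. Of the 71 subunits 35 were higher (49.3%). Among the 2549 brightest genes the shares were 31.8% higher and 29.5% lower. Because the sets were formed after the arrays were seen to part, these calls describe the arrays and are read against the shares over all genes.

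The median log2 difference was 0.11 over the 71 subunits and 0.01 over all genes tested. For 18 of the 71 subunits every sample of replicates 4 to 6 lay above every sample of replicates 1 to 3 (25.4%), and for 0 every sample lay below, against 11.4% above and 14.3% below over all genes. By complex, the higher calls were 15 of 32 subunits for complex I, 2 of 3 for complex II, 4 of 7 for complex III, 5 of 11 for complex IV and 9 of 18 for complex V. The median differences were 0.11, 0.17, 0.17, 0.08 and 0.10 in that order of complexes.

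**Figure D3:**
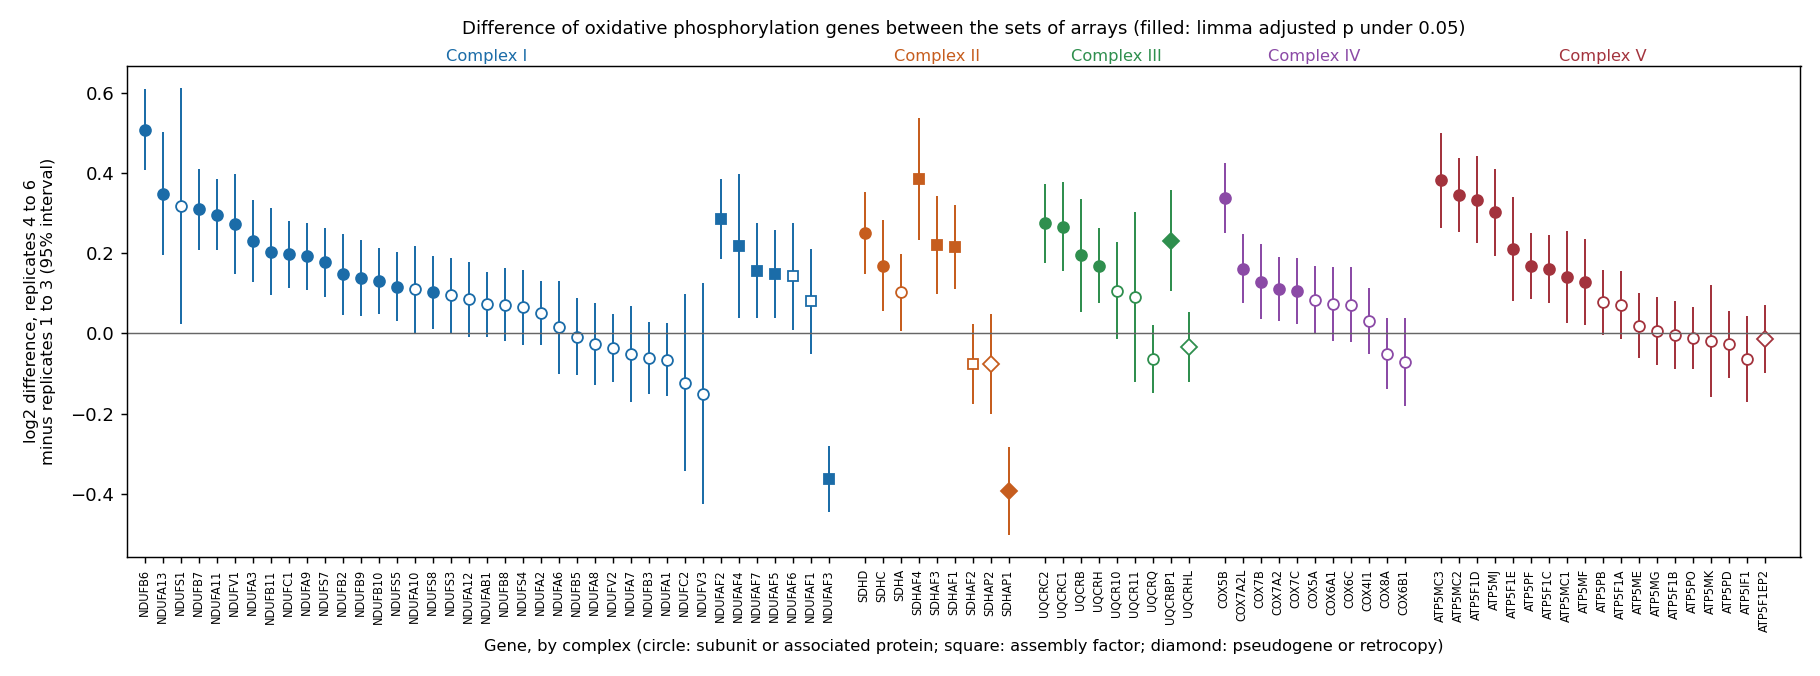
The log2 difference of each of the 87 genes (replicates 4 to 6 minus replicates 1 to 3, 6 samples each) is plotted by complex with its 95% interval, with symbols as for the siRNA change and filled symbols for an adjusted p under 0.05. Of the 45 filled symbols 43 lie above 0, and NDUFAF3 (-0.36) and SDHAP1 (-0.39) lie below.

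In complex I the largest differences were those of NDUFB6 and NDUFA13, both accessory subunits of the membrane arm, the second also known as GRIM-19. NDUFB6 had log2 signals of 10.14 to 10.32 (median 10.19) in replicates 4 to 6 and 9.54 to 9.78 (median 9.73) in replicates 1 to 3. The sets did not overlap, and NDUFB6 was 1.42-fold higher in replicates 4 to 6 (log2 difference 0.51 ± 0.048, SE; adjusted p = 1.7e-09). A second NDUFB6 probe, nearly as bright, gave a smaller difference of 0.30. NDUFA13 had 10.04 to 10.50 (median 10.39) in replicates 4 to 6 and 9.82 to 10.20 (median 9.90) in replicates 1 to 3. Its sets overlapped, with a difference of 0.35 (adjusted p = 0.000283). Of the 6 core subunits of complex I that were tested, 3 were higher, NDUFV1 (0.27), NDUFS7 (0.18) and NDUFS8 (0.10), and of the 26 accessory subunits 12 were higher.

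In complex II, the membrane anchors SDHD and SDHC were higher and the flavoprotein SDHA was not called. SDHD had log2 signals of 10.69 to 10.90 (median 10.81) in replicates 4 to 6 and 10.43 to 10.69 (median 10.54) in replicates 1 to 3. The sets met at 10.69 without overlapping. Its difference was 0.25 (adjusted p = 0.000103), that of SDHC 0.17 (adjusted p = 0.0105) and that of SDHA 0.10 (adjusted p = 0.0606). The assembly factor SDHAF4 differed by 0.39, with 7.01 to 7.48 in replicates 4 to 6 and 6.73 to 7.02 in replicates 1 to 3, ranges that overlapped narrowly, and by 0.23 without background correction.

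In complex III the core proteins UQCRC1 and UQCRC2, which lie on the matrix side of the complex, had the largest differences. UQCRC2 had log2 signals of 10.69 to 10.83 (median 10.81) in replicates 4 to 6 and 10.37 to 10.61 (median 10.51) in replicates 1 to 3. UQCRC1 had 10.07 to 10.32 (median 10.16) in replicates 4 to 6 and 9.73 to 10.01 (median 9.93) in replicates 1 to 3. For both the sets did not overlap, and the differences were 0.27 (adjusted p = 2.1e-05) for UQCRC2 and 0.27 (adjusted p = 0.000144) for UQCRC1.

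In complex IV, COX5B, a regulatory subunit on the matrix side, had the largest difference, with log2 signals of 11.44 to 11.56 (median 11.54) in replicates 4 to 6 and 11.07 to 11.26 (median 11.20) in replicates 1 to 3. The sets did not overlap and the difference was 0.34 (adjusted p = 1.36e-07). COX7A2L followed with 0.16 (adjusted p = 0.00176), which had an adjusted p of 0.0659 in NT siRNA samples alone. COX5A and COX4I1, subunits that join the enzyme early in its assembly, were not called, with differences of 0.08 and 0.03.

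In complex V, all 3 genes of the c-ring were higher. ATP5MC3 had log2 signals of 8.70 to 8.94 (median 8.84) in replicates 4 to 6 and 8.27 to 8.60 (median 8.43) in replicates 1 to 3. ATP5MC2 had 11.76 to 11.93 (median 11.85) in replicates 4 to 6 and 11.40 to 11.61 (median 11.51) in replicates 1 to 3. Neither overlapped between the sets, and the differences were 0.38 (adjusted p = 2.99e-06) for ATP5MC3, 0.34 (adjusted p = 2.9e-07) for ATP5MC2 and 0.14 (adjusted p = 0.0323) for ATP5MC1.

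The F1 head had 3 of 5 genes higher: ATP5F1D, its delta subunit (0.33, adjusted p = 5.33e-06), ATP5F1E, the epsilon subunit (0.21), and ATP5F1C, the gamma shaft (0.16). The alpha and beta subunits, ATP5F1A and ATP5F1B, differed by 0.07 and 0.00 and were not called. Of the other 10 subunits and associated proteins of complex V, 3 were higher. ATP5IF1, the inhibitor, differed by -0.06 at its brightest probe and by -0.44 at a dimmer one.

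The assembly factors had 7 of 11 genes higher and 1 lower, beside 25.9% higher and 25.2% lower over all genes. NDUFAF3, which works with NDUFAF4 in an early step of complex I assembly, had log2 signals of 11.53 to 11.66 (median 11.58) in replicates 4 to 6 and 11.89 to 12.01 (median 11.95) in replicates 1 to 3. Its sets did not overlap, and it was 1.29-fold lower in replicates 4 to 6 (-0.36 ± 0.039, SE; adjusted p = 1.39e-08). The other lower gene was SDHAP1, a pseudogene of SDHA whose probe may bind RNA of its parent, with 10.58 to 10.96 in replicates 4 to 6 and 11.04 to 11.32 in replicates 1 to 3 (difference -0.39, adjusted p = 6.17e-07). Its 4 dimmer probes had differences of -0.41, -0.21, -0.12 and 0.16, and the mean of its probes gave -0.19 (adjusted p = 0.0153).

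The set difference had the same direction in both siRNA groups for most subunits. Of 71 subunits, 54 were higher in replicates 4 to 6 both among GATA4 siRNA samples and among NT siRNA samples, 8 were lower in both and 9 were opposite. Across the 71 genes, which are not independent replicates, the differences of these groups, which share no sample, had a Pearson r of 0.77. Neither the counts nor this r were computed over all genes tested, so they cannot be called particular to the subunits. In each sample the median deviation of the 71 subunits from their gene means lay between 0.027 and 0.069 in the 6 samples of replicates 4 to 6, and between -0.092 and -0.022 in the 6 samples of replicates 1 to 3. The sets did not overlap on this measure. Over all genes tested the median deviation lay between -0.009 and 0.013 in replicates 4 to 6 and between -0.0045 and 0.0061 in replicates 1 to 3. Quantile normalisation holds that median near 0 on every array, so it cannot show whether other gene groups part the sets as much. By complex, the sample medians of the sets did not overlap for complexes I, II, IV and V and overlapped for complex III. For complex II the gap was narrow, from 0.018 in replicates 1 to 3 to 0.022 in replicates 4 to 6.

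**Figure D4:**
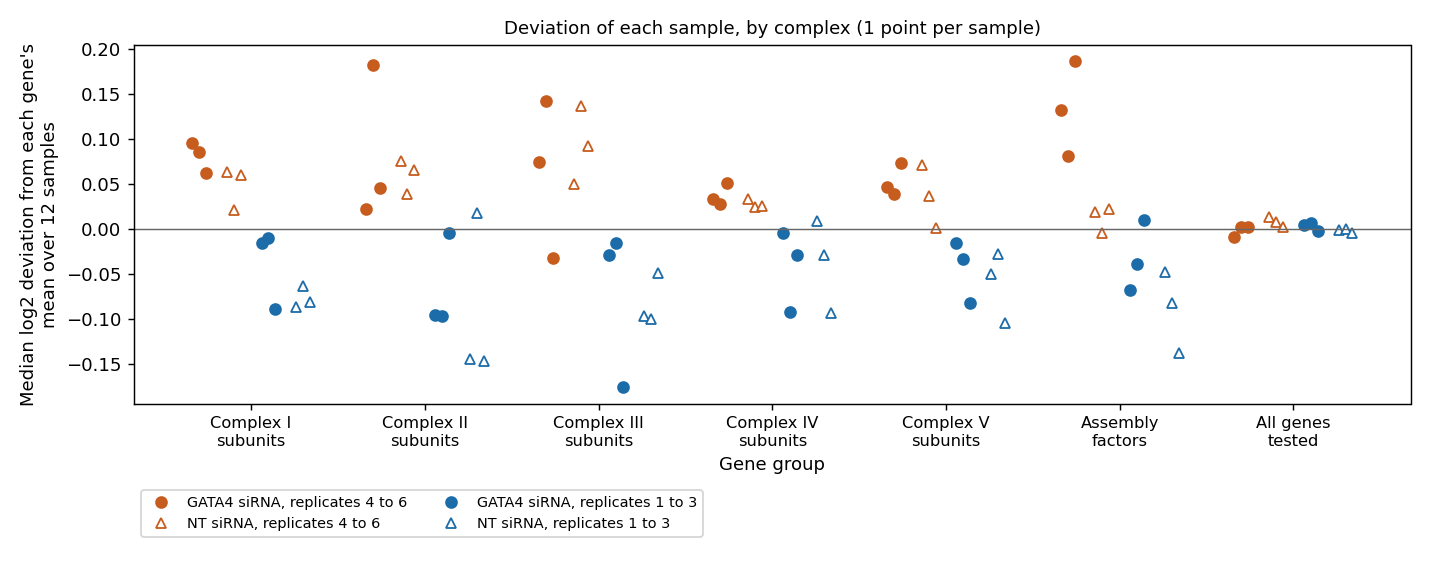
The median log2 deviation of each gene group from its genes' means over 12 samples is plotted for each sample, 1 point per sample, with replicates 4 to 6 in orange left of replicates 1 to 3 in blue, and within each set GATA4 siRNA (filled circles) left of NT siRNA (open triangles). For complexes I, II, IV and V the 2 sets do not overlap, narrowly so for complex II, and for complex III they do.

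Other lists of mitochondrial genes are given beside 25.9% higher and 25.2% lower calls over all genes tested. The mitochondrial ribosome, which translates the subunits encoded in mitochondrial DNA, had 47 of 76 genes higher and 5 lower, with a median of 0.19. The tricarboxylic acid cycle had 7 of 16 higher and 0 lower (median 0.13), with SUCLG2 (0.29), DLST (0.28) and IDH2 (0.27) the largest. The cristae organising genes had 8 of 12 higher and 0 lower (median 0.15), led by MICOS10 (0.48) and PHB2 (0.42), and protein import had 7 of 17 higher and 1 lower (median 0.08). Of 12 regulators of mitochondrial biogenesis 6 were higher and 1 lower, TFB1M, a methyltransferase of mitochondrial ribosomal RNA (0.42), the mitochondrial RNA polymerase POLRMT (0.29) and the ETS factor GABPA (0.31) among the higher and GABPB2 (-0.49) the lower one.

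The complex IV assembly factors went both ways, with 10 of 24 higher and 7 lower. LRPPRC, which stabilises mitochondrial messenger RNA, differed by 0.39, and COA8 and COX20, which serve complex IV biogenesis, by -0.77 and -0.44. Among complex V assembly factors 3 of 5 were higher, TMEM70 (0.40) among them, and FMC1 was lower (-0.59). Complex III assembly factors had 1 of 7 genes higher, TTC19 (0.25), and 1 lower, UQCC1 (-0.18), and complex I assembly factors outside the prefixes had 3 of 10 higher and 1 lower. Of 3 cytochrome c genes 1 was higher, cytochrome c1 CYC1 (0.28), and 1 lower, HCCS, which attaches heme to c-type cytochromes (-0.18). The carriers and uncoupling genes had 0 of 6 higher and 1 lower, and the cytosolic ribosome had 33 of 71 higher and 5 lower (median 0.10).

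**Figure D5:**
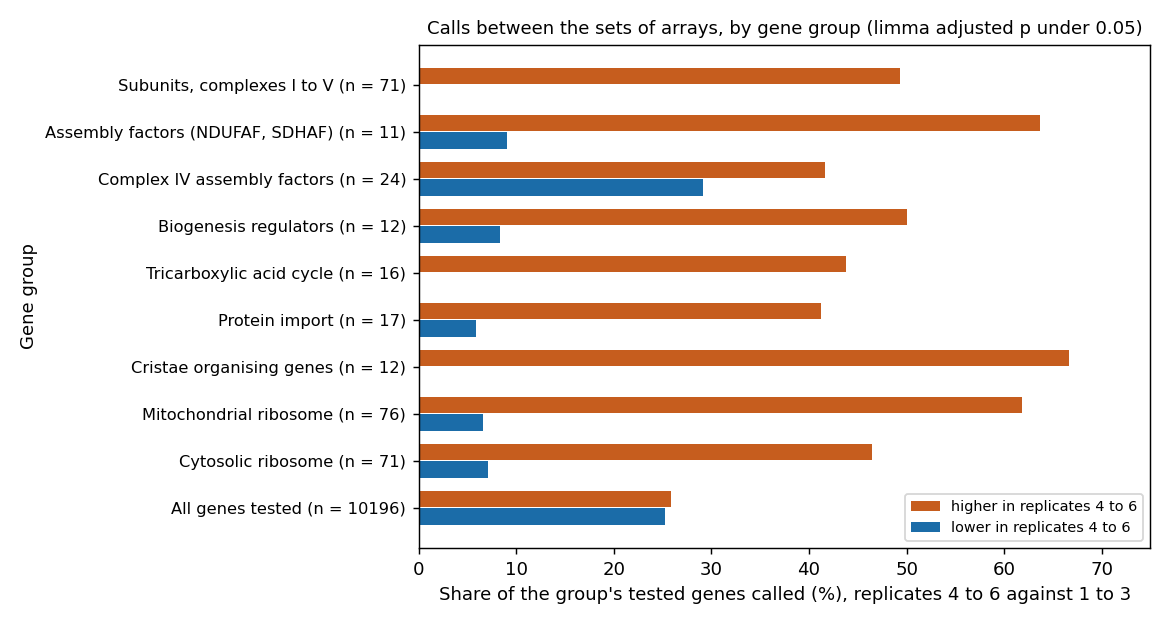
Bars give the percentage of tested genes in each group that were called higher (orange) or lower (blue) in replicates 4 to 6 than in replicates 1 to 3 at a limma adjusted p under 0.05, with the number of tested genes beside each name. The subunits stand at 49.3% higher and 0% lower, beside 25.9% and 25.2% of all genes tested.

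Markers of other cell types moved between the same sets of replicates, where 25.9% of all genes were higher, 25.2% were lower and 51.1% were either. Of 7 tested stellate cell and fibroblast markers 1 was higher and 5 were lower in replicates 4 to 6 (median -0.57), and the summed linear signal of all 12 on the array was 7963 to 9164 in replicates 4 to 6 and 11687 to 13726 in replicates 1 to 3. COL3A1, DCN, LUM and THY1 were detected on 0 arrays and COL1A1 on 4, while PDGFRA was detected on 10 arrays and COL1A2, PDGFRB, RGS5, ACTA2, TAGLN and VIM on all 12. Of 6 tested endothelial, blood and bile duct markers 1 was higher and 4 were lower (median -0.34), with a summed signal of 8958 to 9860 in replicates 4 to 6 and 10600 to 11906 in replicates 1 to 3, and VWF, CDH5, PTPRC, HBB and KRT7 were detected on 0 arrays, CD163 on 6, and PECAM1, CD68, CD3D, KRT19 and SOX9 on all 12. These sums mostly follow a few bright genes. They were ACTA2 and TAGLN in the first list, with raw signals of 3523.6 to 5878.1 and 2787.3 to 6244.5. In the second list it was KRT19, with 6329.1 to 7982.6. Of 10 hepatoblastoma markers 1 was higher and 4 were lower. The median raw signal of an array was 119.7 to 128.1 in replicates 4 to 6 and 117.4 to 123.1 in replicates 1 to 3. Their part in the set difference of the oxidative phosphorylation genes was not tested.

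The promoters of the subunits were compared with all promoters in the RefSeq table. A window was found for 60 of the 71 subunits and 10 of the 11 assembly factors. The NRF1 motif occurred in 14 of the 60 subunit promoters (23.3%) and in 6.28% of all 27305, the ETS motif in 19 (31.7%) and in 10.7%, and the YY1 motif in 19 (31.7%) and in 6.82%. NRF1, the ETS factor GABP and YY1 are known regulators of nuclear genes for mitochondria. A GATAA or GATAG letter run occurred in 18 of the 60 and in 36.1% of all promoters. Among the 28 subunits called higher in replicates 4 to 6 that had a window, 7 held the NRF1 motif, 6 the ETS motif, 7 the YY1 motif and 10 a GATA motif, and among the 32 not called, 7, 13, 12 and 8 did in the same order. A match to these letters is not a bound site.

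The promoters of a leading member of complexes I, II and IV between the sets are printed as examples. They held no YY1 or GATA match, which 19 and 18 of the 60 subunit promoters held. Windows of other leading members, not printed, did hold a GATA motif: ATP5MC2 at position -76 and NDUFA13 at -115, the latter with an ETS motif at -10. That of UQCRC2 held no match. The printed windows therefore do not stand for the leading members as a group. The windows and the marking are those used above (GRCh38.p14). The NDUFB6 window, chr9:32573110-32573409 on the minus strand, held no match. The SDHD window, chr11:112086623-112086922 on the plus strand, held an NRF1 motif at position -110 that matches on both strands and an ETS motif at -77. The COX5B window, chr2:97645812-97646111 on the plus strand, held ETS motifs at -37 and -5.
NDUFB6: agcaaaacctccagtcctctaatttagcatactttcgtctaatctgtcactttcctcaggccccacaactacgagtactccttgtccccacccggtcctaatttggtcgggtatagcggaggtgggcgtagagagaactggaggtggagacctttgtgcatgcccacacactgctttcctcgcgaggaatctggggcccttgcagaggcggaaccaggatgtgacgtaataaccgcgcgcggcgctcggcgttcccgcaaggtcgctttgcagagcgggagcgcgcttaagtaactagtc
SDHD: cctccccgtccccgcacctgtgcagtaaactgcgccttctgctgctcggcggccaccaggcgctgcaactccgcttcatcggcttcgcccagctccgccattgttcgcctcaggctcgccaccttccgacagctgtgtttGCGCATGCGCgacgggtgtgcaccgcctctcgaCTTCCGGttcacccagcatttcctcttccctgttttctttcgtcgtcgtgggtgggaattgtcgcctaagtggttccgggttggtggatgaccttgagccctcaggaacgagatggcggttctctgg
COX5B: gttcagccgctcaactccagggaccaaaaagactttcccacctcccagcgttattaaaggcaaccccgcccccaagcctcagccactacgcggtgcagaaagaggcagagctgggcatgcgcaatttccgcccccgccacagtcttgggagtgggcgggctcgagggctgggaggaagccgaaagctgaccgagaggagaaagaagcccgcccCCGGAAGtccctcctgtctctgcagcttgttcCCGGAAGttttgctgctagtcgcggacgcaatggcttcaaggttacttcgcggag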

How the data were processed

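Total RNA of 12 HUH6 samples was measured on Illumina HT-12 v4 arrays, 6 after GATA4 siRNA and 6 after NT siRNA. The authors deposited non-normalised intensity values with a detection p-value for each probe, exported from GenomeStudio per the submitters' processing notes, and a table of log2 values, which differed from quantile-normalised log2 signals by at most 0.0141. Precision is limited by the number of arrays.

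The non-normalised intensities were background-corrected from the detection p-values and quantile-normalised by neqc with an offset of 16 (limma 3.58.1, R 4.3.3). Probes were kept at a detection p under 0.01 on at least 6 of 12 arrays (13201 probes with 1 current symbol), and the brightest probe stood for its gene. Current symbols came from the platform annotation and RefSeq (GRCh38.p14). Tests used lmFit and eBayes with an intensity trend. P-values were two-sided and adjusted over 10196 genes after Benjamini and Hochberg. The siRNA fit had the replicate number as a block. The set fit had terms for siRNA and for replicates 4 to 6 against 1 to 3, and the interaction was fitted too. Deviations of same-numbered samples correlated at 0.547 to 0.603, and those of other numbers in the same set at 0.548 to 0.629. By this measure same-numbered samples were no more alike than other samples of their set.

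Per-sample values are given for genes called between the siRNAs and, up to 6 genes, those with the lowest p, and for the largest called differences between sets in each complex. Members and lists were chosen with earlier results of these data known. Alternatives changed the background correction, scaling, filter, probe rule, eBayes options, block and samples. The fits were tested on simulated data.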

Additional observations from a re-analysis of the deposited data

Results flagged for a closer look

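In 174 groups of 6 samples (87 genes, each siRNA), 8 held a sample whose gap to its nearest neighbour, as a share of the group's range, exceeded Dixon's 95% critical value, and chance alone flags about 8.7. After GATA4 siRNA these were NDUFB2 in replicate 3 (11.92, others 12.16 to 12.26), NDUFAF7 in replicate 3 (9.35, others 9.60 to 9.75), ATP5MG in replicate 4 (12.44, others 12.35 to 12.37) and ATP5F1A in replicate 6 (14.15, others 13.90 to 13.98). With NT siRNA they were NDUFA1 in replicate 5 (11.34, others 11.46 to 11.52), UQCRBP1 in replicate 3 (9.66, others 9.93 to 10.09), ATP5PD in replicate 2 (12.67, others 12.48 to 12.51) and ATP5PO in replicate 5 (12.26, others 12.31 to 12.33).

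Of the 14 symbols under the detection limit for testing, NDUFA5 was detected on 2 arrays after GATA4 siRNA, and NDUFB1 and SDHAP3 on 1 each. With NT siRNA none of the 3 was detected on any array. No test was made of these probes.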

How the results depend on the processing

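Between the siRNAs, 2 of the 87 genes and 656 of all genes were called with the replicate block. Without the block 0 genes of the 87 and 72 of all genes were called, and SDHAF4 and NDUFAF4 had adjusted p-values of 0.415 and 0.358. Median scaling called 1 of the 87 and 360 of all genes, no filter (20045 genes tested) 0 and 398, and no trend 1 and 271. The robust fit called 1 of the 87. Replicates 1 to 3 alone called 1 of the 87 (NDUFAF4) and 121 of all genes, with fewer samples, and replicates 4 to 6 alone called 1 (SDHAF4). Leaving out each replicate number gave 1 to 3 of the 87 and 445 to 587 of all genes. The cause of the other shifts was not tested. SDHAF4 lost its call under 7 of 20 alternatives and NDUFAF4 under 7 of 20, and neither turned in sign. NDUFA1 was called with the 2 sets as blocks (adjusted p = 0.0282). Between the sets, 45 of the 87 genes were called, and 30 to 48 over 19 alternatives. The absence of lower subunits had exceptions: 2 were lower with probes averaged, 1 without replicate 3 and 1 in NT siRNA samples alone. Of 195 complex medians under alternatives 189 moved by less than the spread between samples. The siRNA medians of complexes II, III and V took both signs over the alternatives, from -0.02 to 0.04, -0.02 to 0.01 and -0.0048 to 0.031. The array chip could not be used as a block, since no chip was named in the tables used here. Genes near the background, NDUFS1 among them, have wide intervals.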
